A study of Mus musculus with 16 samples.

Results

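The cytosolic heat shock chaperone genes Hspa8, Hspa1a, Hspa1b, Hsph1, Hsp90aa1, Hsp90ab1, Dnaja1, Dnajb1 and Hspb1, together with their regulator Hsf1, were taken by gene symbol from a table of 22392 symbols. These are 10 genes with 41 listed transcripts, and each gene was read at the transcript with the largest sum of counts over the 16 libraries. Chaperones of the Hsp70 class bind unfolded stretches of proteins in cycles of ATP hydrolysis, which J-domain proteins start and nucleotide exchange factors of the Hsp110 class end. Hsp90 proteins act later, on nearly folded clients, and small heat shock proteins hold aggregating proteins. In cells under heat or other proteotoxic stress, heat shock factor 1 (Hsf1) binds repeats of the unit GAA, called heat shock elements, and raises transcription of the inducible members.

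The cells were Hepa1-6, a mouse hepatoma line, either wild type (WT) or carrying a homozygous deletion of exon 5 of Eef1d. Eef1d encodes a subunit of translation elongation factor 1, and its long protein isoform is described as a transcription factor of heat shock genes, which is why these genes were examined. The lines KO1 and KO2 were made with the guide pair S1 and S4 and KO3 with S2 and S4, and each is a clone of a single cell, so that deletion of exon 5 and differences between clones cannot be told apart within a line. No line received heat or another stress, and the lysis buffer of all lines contained cycloheximide. Each line gave 2 replicates, and each replicate lysate gave an RNA-seq and a Ribo-seq library. The methods call the Ribo-seq replicates biological, and the labels do not say whether they were separate cultures, so p-values measure the spread between these samples.

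RNA-seq libraries held from 10493030 to 12946819 counts at 1 transcript per gene and Ribo-seq libraries from 1138943 to 4886753, where the smallest was replicate 2 of KO1. Pearson's r of log2 CPM between replicates, across genes, was from 0.983 to 0.994. On Eef1d, the transcript of 651 counted codons that encodes the long isoform exceeded the transcript of 272 codons by 57 and 65 RNA-seq counts in WT cells and by 12 to 20 in the clones, against 1497 to 2582 counts on the shorter transcript. For footprints the excess was 16 and 9 counts in WT cells and 1 to 13 in the clones, which overlap. These raw differences were not scaled or tested. Of 10 hepatocyte markers, 8 had at least 10 counts in every RNA-seq library, while Apoa1 and Ttr had 0 to 14. Summed over all 10, the markers reached 2499 to 2681 CPM in WT cells, while KO1 had 1044 to 1051, KO2 1979 to 2096 and KO3 3603 to 3771. The part of this shift in the results below was not tested. The summed level of 7 markers of other liver cells (Ptprc, Adgre1, Pecam1, Stab2, Col1a1, Des and Krt19) was from 3.00 to 6.02 CPM, and Adgre1 was at 0 throughout.

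Sequence is shown first for the inducible Hsp70 pair, because it bears on what reads can say about these genes. Hspa1a (chr17:34969190-34972156, minus strand, GRCm38) and Hspa1b (chr17:34956436-34959238, minus strand) are single-exon genes. Their coding sequences aligned over 1929 positions, of which 11 differed, 3 of them gaps, so that 99.4% were identical. Of the 30-base windows in the coding sequence of Hspa1a, 88.8% also occurred in Hspa1b. The share was 75.3% for windows of 75 bases and 54.5% for windows of 150 bases. The stretch from coding base 1357 to 1416, shown here from the reference genome in the coding direction, holds 2 of the differing bases, which are in capitals.
Hspa1a: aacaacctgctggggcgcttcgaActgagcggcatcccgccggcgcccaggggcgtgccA
Hspa1b: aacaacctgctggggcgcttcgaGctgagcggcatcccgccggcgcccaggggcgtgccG
A footprint of about 30 bases that lies between such positions fits both genes.

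Exact matches to runs of heat shock units are shown next, because the members with a promoter window differ in these matches. RefSeq promoter windows, from 250 bases before to 50 bases after an annotated start on GRCm38.p6, were found for 6 of the 10 genes (Hspa1a, Hspa1b, Hsph1, Dnaja1, Dnajb1 and Hspb1) in 10 entries. A run of 3 units was searched on both strands as GAANNTTCNNGAA or TTCNNGAANNTTC. It occurred in 198 of 32851 promoter windows of the reference (0.603%) and, among the 6 members, in Hsph1, where it began 15 or 36 bases after the start, depending on the entry. A run of 2 units, GAANNTTC or TTCNNGAA, which also lies within any run of 3, occurred in 15.1% of all windows. The matches are in capitals below, and each line reads along the strand of its gene.
Hsph1, 3 units, chr5:149636281-149636307, minus strand: ctgcagaTTCTGGAAAGTTCtcctcag
Hsph1, 2 units, chr5:149636352-149636379, minus strand: ggtagaatctTTCTCGAAggctcgagaa
Hspa1a, 2 units, chr17:34972243-34972270, minus strand: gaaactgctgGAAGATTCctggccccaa
Hspa1b, 2 units, chr17:34959325-34959352, minus strand: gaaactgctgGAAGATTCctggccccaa
Hspb1, 2 units, chr5:135887792-135887819, plus strand: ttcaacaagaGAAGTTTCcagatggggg
Hspb1, 2 units, chr5:135887812-135887839, plus strand: gatgggggcaGAACCTTCctggccccgc
Dnaja1, 2 units, chr4:40722334-40722361, plus strand: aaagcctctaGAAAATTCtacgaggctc
Hspa1a and Hspa1b had the same 28 bases, with a match that begins 104 bases before the start. No Dnajb1 window held either pattern. The search took exact letters only, so a missing match in any member says only that these letters are not in its window. Whether the members differ in elements that Hsf1 binds was not tested.

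The inducible members Hspa1a, Hspa1b and Hspb1 were at or near 0 in every line. Other inducible members, such as Dnajb1 and Hsp90aa1, were expressed and are given below. Hspa1a and Hspa1b, the stress-inducible Hsp70 genes, and Hspb1, which encodes the small heat shock protein Hsp27, had between 0 and 4 counts in each of the 16 libraries. Hspa1a had 1 RNA-seq count in each WT library, none in either KO1 library, 2 and 0 for KO2, 0 and 1 for KO3, and at most 2 footprints in any library. For Hspa1b, RNA-seq counts were 2 and 2 in WT cells, 2 and 0 in KO2 and 0 in the libraries of KO1 and KO3, and footprints reached 4 in replicate 2 of KO3. Hspb1 was at 0 in 11 of 16 libraries, with at most 3 RNA-seq counts and at most 1 footprint. A count of 0 allows a level of up to 0.237 to 0.283 CPM in the RNA-seq libraries and 0.609 to 2.53 CPM in the Ribo-seq libraries, with 3 counts taken as the limit, which covers counting error only. None of the 3 genes passed the filter on low counts in any comparison, so no change between lines was detectable for them at this depth.

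Much of the coding sequence of these genes has copies elsewhere in the genome, and this differed widely between members. The share of 30-base windows found at another place of GRCm38 was 95.0% for Hspa8, 95.0% for Dnaja1, 93.2% for Hspb1, 92.0% for Hsp90aa1, 91.3% for Hspa1a and 88.6% for Hspa1b. It was 23.5% for Hsp90ab1, 0.922% for Hsf1, and no window of Hsph1 or Dnajb1 was copied. Hspa8, Dnaja1 and Hsp90aa1 thus shared the high values of Hspa1a, Hspa1b and Hspb1, yet had from 3551 to 41021 counts in each RNA-seq library and from 716 to 17800 in each Ribo-seq library. The methods count reads as uniquely mapped in their last step, but do not state that the deposited counts hold only these. In some Ribo-seq libraries the counts at 1 transcript per gene exceeded the uniquely mapped reads given there. For members with many copies, reads with several places may thus be missing, or reads from a copy may be included. These counts are uncertain in both directions, and neither case was tested. Windows of 30 bases are near the length of a footprint. For RNA-seq, sequenced with 150-base reads, longer windows were compared only between Hspa1a and Hspa1b.

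**Figure D1:**
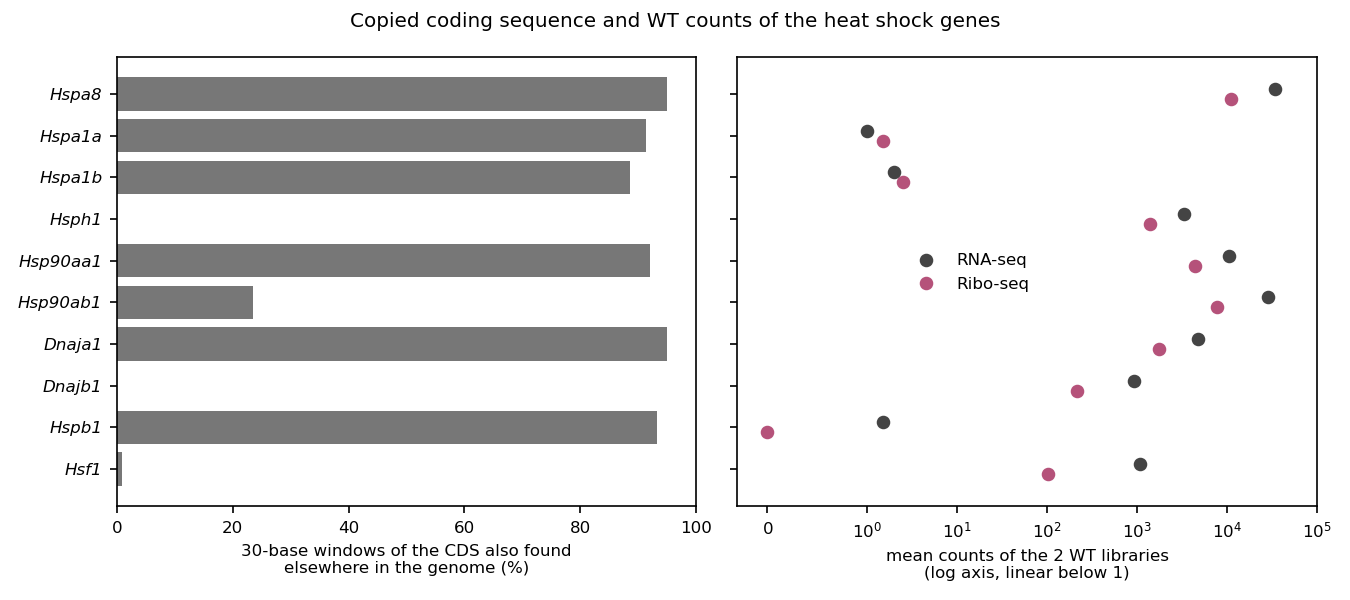
Left, the share of 30-base windows of each counted coding sequence that also occurs elsewhere in the genome (%). Right, the mean count of the 2 WT libraries for RNA-seq and Ribo-seq on a log axis that is linear below 1. Hspa8, Hsp90aa1 and Dnaja1 combine a high share of copied windows with high counts, while Hspa1a, Hspa1b and Hspb1 combine it with counts near 0.

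The 7 other genes were expressed in all lines. In WT cells the mean RNA level per length, in CPM per 1000 codons, was 4763 for Hspa8, the constitutive cytosolic Hsp70, and 3509 for Hsp90ab1, the constitutive Hsp90. These values ranked 131 and 169 of 11215 genes. The more inducible Hsp90 isoform, Hsp90aa1, stood at 1278 and the J-domain protein gene Dnaja1 at 1090. Hsph1, the Hsp110 exchange factor, stood at 347, the J-domain protein gene Dnajb1 at 245 and Hsf1 at 186. Neighbours in this order did not overlap between the WT libraries on this per-length scale: for Hsp90aa1 the values were 1290 and 1267 and for Dnaja1 1111 and 1069, and for Dnajb1 they were 230 and 260 against 204 and 167 for Hsf1. Footprints per length gave the same order, from 5941 for Hspa8 to 222 for Dnajb1 and 65.3 for Hsf1. The 7 genes together took from 0.667% to 0.780% of RNA-seq counts and from 0.822% to 0.958% of footprints.

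Translation efficiency (TE), the CPM of footprints divided by the CPM of RNA from the same lysate, separated the chaperones from their regulator. Hsp90aa1 and Hsph1 had the highest ratios in WT cells. Hsp90aa1 had 1.57 and 1.64 in the WT lysates and stood between the 85.3 and the 92.1 percentile of 8357 genes over the 8 lysates. Hsph1 had 1.57 and 1.54, followed by Dnaja1 with 1.33 and 1.48, and Hspa8 with 1.14 and 1.37. Hsp90ab1 had 1.07 and 1.02, and Dnajb1 had 0.909 and 0.905. Over the 8 lysates, the ratios of each pair of neighbours in this order of the chaperones overlapped. Hsf1 stood apart below all of them, with 0.360 and 0.342 in WT cells and a range from 0.307 to 0.406 over the 8 lysates, the 5.52 to 11.3 percentile. Hsf1 had 23 to 161 footprints in a library, so its ratio is the least precise.

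**Figure D2:**
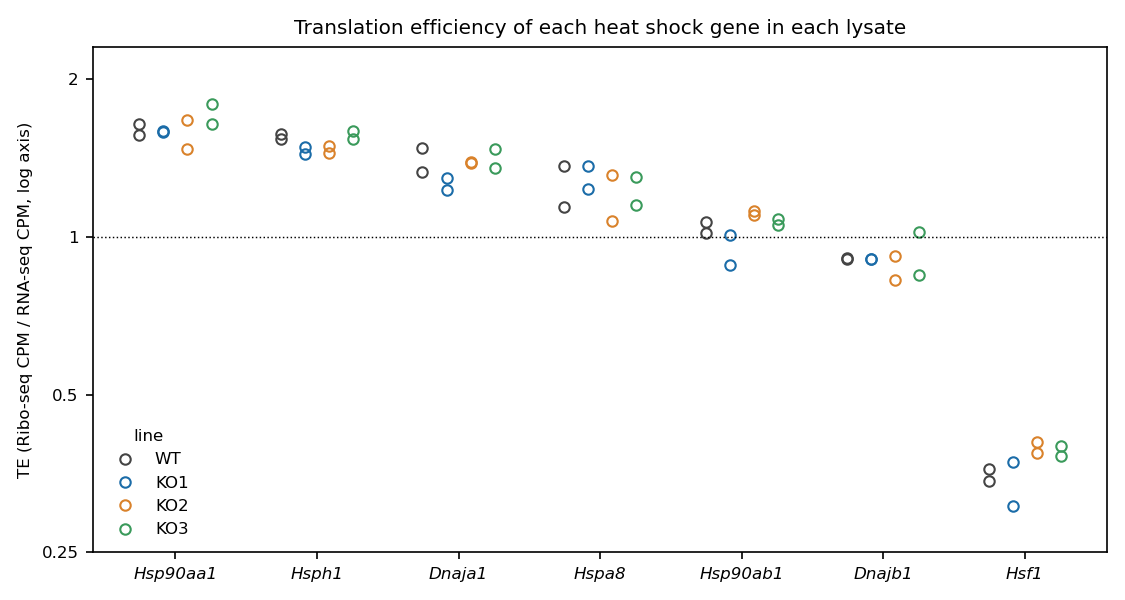
TE of each gene in each of the 8 lysates (circles, log axis), by line. Hsp90aa1 lies at 1.47 to 1.79 and Hsf1 at 0.307 to 0.406, and Hsf1 is below the other genes in every lysate.

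The comparison of each clone with WT cells asks whether levels of these genes changed in cells with the exon 5 deletion. Of the 7 testable genes, 6 passed for RNA in KO1, while KO2 had 3 and KO3 had 4, and the genes and directions differed between the clones. The test was edgeR's quasi-likelihood test at a Benjamini-Hochberg adjusted p under 0.05. In KO1, Hsph1, Hsp90ab1 and Dnaja1 were higher and Hsf1, Dnajb1 and Hspa8 were lower. In KO2, Dnajb1, Hsph1 and Hspa8 were higher and none was lower, and in KO3 Hsp90aa1 was higher and Dnaja1, Hsph1 and Hsp90ab1 were lower. Among all genes, the share that passed was 46.7% of 11515 for KO1, 20.4% of 11476 for KO2 and 45.4% of 11434 for KO3. None of the 7 passed in the same direction in all 3 clones, and the share of all genes that did so was not counted. The 7 had a median log2 change of -0.070 for KO1, 0.077 for KO2 and -0.072 for KO3, beside medians over all genes of 0.0025, 0.00018 and 0.0014. The largest RNA change was that of Hsf1 in KO1 (-0.68), and the next that of Dnaja1 in KO3 (-0.49). Fewer cells with RNA of a gene and less of it per cell cannot be told apart in these bulk samples, and the 3 comparisons share the WT libraries.

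**Figure D3:**
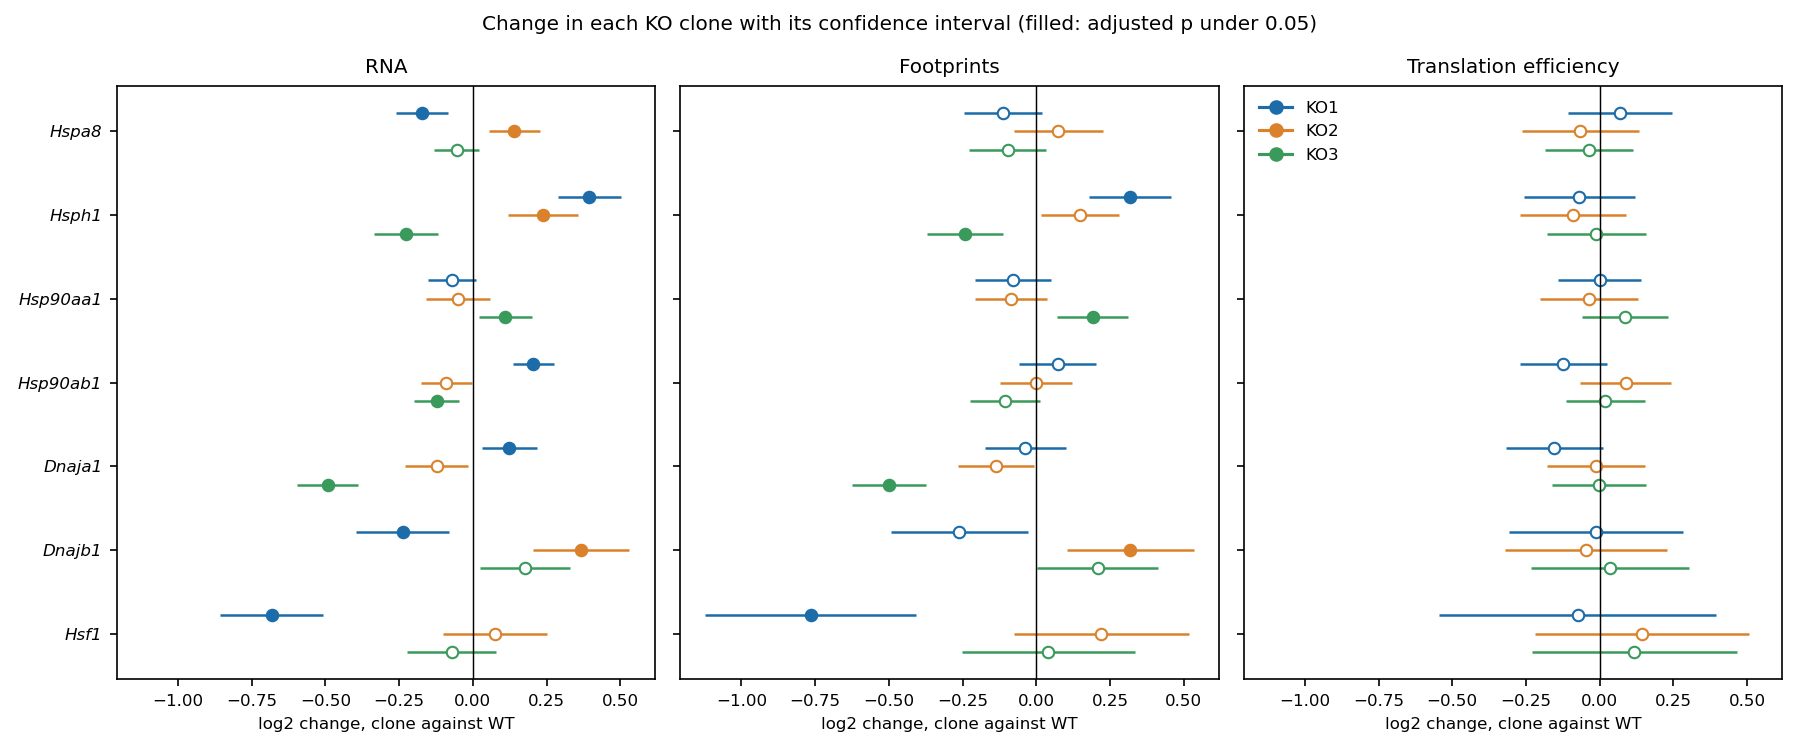
Log2 change of each gene in KO1, KO2 and KO3 against WT for RNA, footprints and TE, with 95% intervals as lines. Filled points passed at an adjusted p under 0.05, which holds for 13 of 21 points for RNA, 6 of 21 for footprints and none for TE.

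Footprints gave fewer calls. In KO1, Hsph1 was higher and Hsf1 lower, beside 26.9% of 10335 genes that passed. In KO2, Dnajb1 was higher, beside 11.7% of 10370, and in KO3 Hsp90aa1 was higher and Hsph1 and Dnaja1 lower, beside 30.6% of 10398. RNA and footprint changes had the same sign in 19 of 21 pairs of gene and clone and lay from 0.0071 to 0.161 apart on the log2 scale. All members called for footprints were called for RNA of the same clone in the same direction. Since both libraries came from the same lysates, these are not independent samplings of the cells.

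Among the core chaperones, Hspa8 had RNA levels of 3161 and 2907 CPM in WT cells, while KO1 had 2929 and 2465, KO2 3326 and 3331, and KO3 2907 and 2897. The KO2 libraries lay above both WT libraries, and the other clones overlapped with WT cells or reached them. The log2 change was -0.17 ± 0.044 (SE) in KO1 (edgeR adjusted p = 0.00105) and 0.14 ± 0.042 in KO2 (edgeR adjusted p = 0.0178). The fall in KO1 was not called without replicate 1 of WT (-0.11, edgeR adjusted p = 0.114) or replicate 2 of KO1 (-0.052, edgeR adjusted p = 0.265) or by DESeq2 (adjusted p = 0.392). The rise in KO2 was not called without replicate 2 of WT (0.082, edgeR adjusted p = 0.472), nor by DESeq2 (adjusted p = 0.132), nor with all lines in 1 fit (adjusted p = 0.0533). Hspa8 footprints were 3599 and 3970 CPM in WT cells, while KO1 had 3613 and 3368, KO2 3562 and 4373, and KO3 3340 and 3769, and each clone overlapped with WT cells. The footprint change in KO2 passed without replicate 1 of KO2 (0.22, edgeR adjusted p = 0.0348).

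Hsp90ab1 RNA stood at 2463 and 2555 CPM in WT cells, while KO1 had 2902 and 2894, KO2 2288 and 2406, and KO3 2311 and 2271. No clone overlapped with WT cells, with KO1 above and the others below. The log2 change was 0.21 ± 0.035 in KO1 (edgeR adjusted p = 2.59e-06) and -0.12 ± 0.038 in KO3 (edgeR adjusted p = 0.00616). In KO2 it was -0.090 ± 0.041 (edgeR adjusted p = 0.136), and without replicate 2 of KO2 it was -0.12 and passed (edgeR adjusted p = 0.00955). The fall in KO3 did not pass without replicate 2 of WT (-0.095, edgeR adjusted p = 0.165). Footprints were 2629 and 2603 CPM in WT cells, while KO1 had 2923 and 2553, KO2 2559 and 2645, and KO3 2428 and 2453, and no clone passed.

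RNA changes of Hsp90aa1 were small, at most 0.11 in size on the log2 scale. Its RNA level was 934 and 917 CPM in WT cells, while KO1 had 895 and 870, KO2 942 and 839, and KO3 1046 and 939. Only the rise in KO3 passed, with 0.11 ± 0.045 (edgeR adjusted p = 0.037), and it did not pass without replicate 1 of KO3 (0.031, edgeR adjusted p = 0.618), without replicate 1 or 2 of WT (0.12 and 0.097, edgeR adjusted p = 0.108 and 0.228) or by DESeq2 (adjusted p = 0.144). Footprints were 1462 and 1507 CPM in WT cells, while KO1 had 1419 and 1386, KO2 1385 and 1399, and KO3 1719 and 1683. The KO3 libraries were the highest, and the log2 change there was 0.19 ± 0.059 (edgeR adjusted p = 0.0116), but 0.17 without replicate 1 of WT (edgeR adjusted p = 0.105) or of KO3 (edgeR adjusted p = 0.0688). KO1 lay below both WT libraries in both assays and KO2 did so for footprints, while RNA of KO2 overlapped with WT cells. Their changes of -0.086 to -0.049 did not pass, except for RNA of KO2 without replicate 1 of KO2 (-0.14, edgeR adjusted p = 0.0146).

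Hsph1, the exchange factor that releases substrates from Hsp70, was higher in 2 clones and lower in the third. RNA was at 306 and 284 CPM in WT cells, while KO1 had 413 and 363, KO2 355 and 338, and KO3 257 and 243. Both libraries of KO1 and KO2 lay above WT cells and both of KO3 below. The log2 change was 0.39 ± 0.054 in KO1 (edgeR adjusted p = 1.52e-08), 0.24 ± 0.057 in KO2 (edgeR adjusted p = 0.0039) and -0.23 ± 0.055 in KO3 (edgeR adjusted p = 0.000424). The change in KO2 did not pass without replicate 2 of WT (0.18, edgeR adjusted p = 0.154), nor that in KO3 without replicate 1 of WT (-0.17, edgeR adjusted p = 0.0692). Footprints kept the same order, with 482 and 436 CPM in WT cells, while KO1 had 594 and 540, KO2 513 and 502, and KO3 395 and 386. Their log2 change was 0.32 ± 0.069 in KO1 (edgeR adjusted p = 0.000335) and -0.24 ± 0.064 in KO3 (edgeR adjusted p = 0.00296), and 0.15 ± 0.065 in KO2 (edgeR adjusted p = 0.151). The footprint change in KO1 narrowly missed without replicate 1 of KO1 (0.25, edgeR adjusted p = 0.0518), and that in KO3 missed without replicate 1 of WT (-0.16, edgeR adjusted p = 0.178) and by DESeq2 (adjusted p = 0.0638). Among the 6 members with a promoter window, Hsph1 was the one with the exact 3-unit match shown above, and no coding window of it was copied elsewhere.

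The J-domain protein genes, whose products deliver substrates to Hsp70, did not move together. Dnaja1 RNA was 431 and 415 CPM in WT cells, while KO1 had 456 and 467, KO2 388 and 385, and KO3 308 and 289. All clones were separate from WT cells, KO1 above and the others below. The fall of 0.49 ± 0.052 in KO3, on the log2 scale, was called (edgeR adjusted p = 1.53e-13), as was the rise of 0.12 ± 0.047 in KO1 (edgeR adjusted p = 0.0262). The rise in KO1 did not pass without replicate 1 or 2 of WT (0.15 and 0.091, edgeR adjusted p = 0.0886 and 0.321), without replicate 2 of KO1 (0.11, edgeR adjusted p = 0.0851), by DESeq2 (adjusted p = 0.0812) or with all lines in 1 fit (adjusted p = 0.0595). Dnaja1 footprints were 574 and 613 CPM in WT cells, while KO1 had 560 and 604, KO2 538 and 535, and KO3 417 and 425, where the log2 change was -0.50 ± 0.062 (edgeR adjusted p = 1.23e-08). No alternative of the settings tried removed the call of Dnaja1 in KO3, for RNA or for footprints.

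Dnajb1, the J-domain partner that Hsf1 is known to induce, had 76.0 and 86.2 CPM of RNA in WT cells, while KO1 had 65.6 and 72.4, KO2 102 and 106, and KO3 84.6 and 97.6. KO1 lay below WT cells, KO2 above, and KO3 overlapped. The log2 change was -0.24 ± 0.079 in KO1 (edgeR adjusted p = 0.0108), 0.37 ± 0.078 in KO2 (edgeR adjusted p = 0.00142) and 0.18 ± 0.077 in KO3 (edgeR adjusted p = 0.0538). The fall in KO1 did not pass without replicate 2 of WT (-0.15, edgeR adjusted p = 0.265), without replicate 1 of KO1 (-0.17, edgeR adjusted p = 0.152) or by DESeq2 (adjusted p = 0.0923), and the rise in KO2 did not pass without replicate 1 of WT (0.28, edgeR adjusted p = 0.0693). In KO3 the change passed without replicate 2 of WT (0.27, edgeR adjusted p = 0.0273) or replicate 1 of KO3 (0.28, edgeR adjusted p = 0.00682). Footprints were 69.1 and 78.0 CPM in WT cells, while KO1 had 59.5 and 65.8, KO2 84.7 and 97.7, and KO3 86.2 and 82.5. Only KO2 passed, with 0.32 ± 0.11 (edgeR adjusted p = 0.0454), and it did not by DESeq2 (adjusted p = 0.518), without replicate 1 of WT (0.22, edgeR adjusted p = 0.41) or without replicate 2 of KO2 (0.22, edgeR adjusted p = 0.301).

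Hsf1 itself was lower in KO1. Its RNA was 105 and 86.1 CPM in WT cells, while KO1 had 66.9 and 52.2, KO2 105 and 96.3, and KO3 93.5 and 87.2. Both KO1 libraries lay below all others, and KO2 and KO3 overlapped with WT cells. The log2 change in KO1 was -0.68 ± 0.087 (edgeR adjusted p = 3.49e-09), and none of the alternatives removed this RNA call. Footprints were 37.9 and 29.5 CPM in WT cells, while KO1 had 20.5 and 19.4, KO2 40.4 and 39.1, and KO3 37.4 and 33.3. The footprint change in KO1 was -0.77 ± 0.18 (edgeR adjusted p = 0.000759), from 101 and 23 footprints in the KO1 libraries, and it did not pass without replicate 1 of WT (-0.54, edgeR adjusted p = 0.138), without replicate 1 of KO1 (-0.81, edgeR adjusted p = 0.0507) or by DESeq2 (adjusted p = 0.158). Summed hepatocyte markers were also lowest in KO1, and their part in the change of Hsf1 was not tested.

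**Figure D4:**
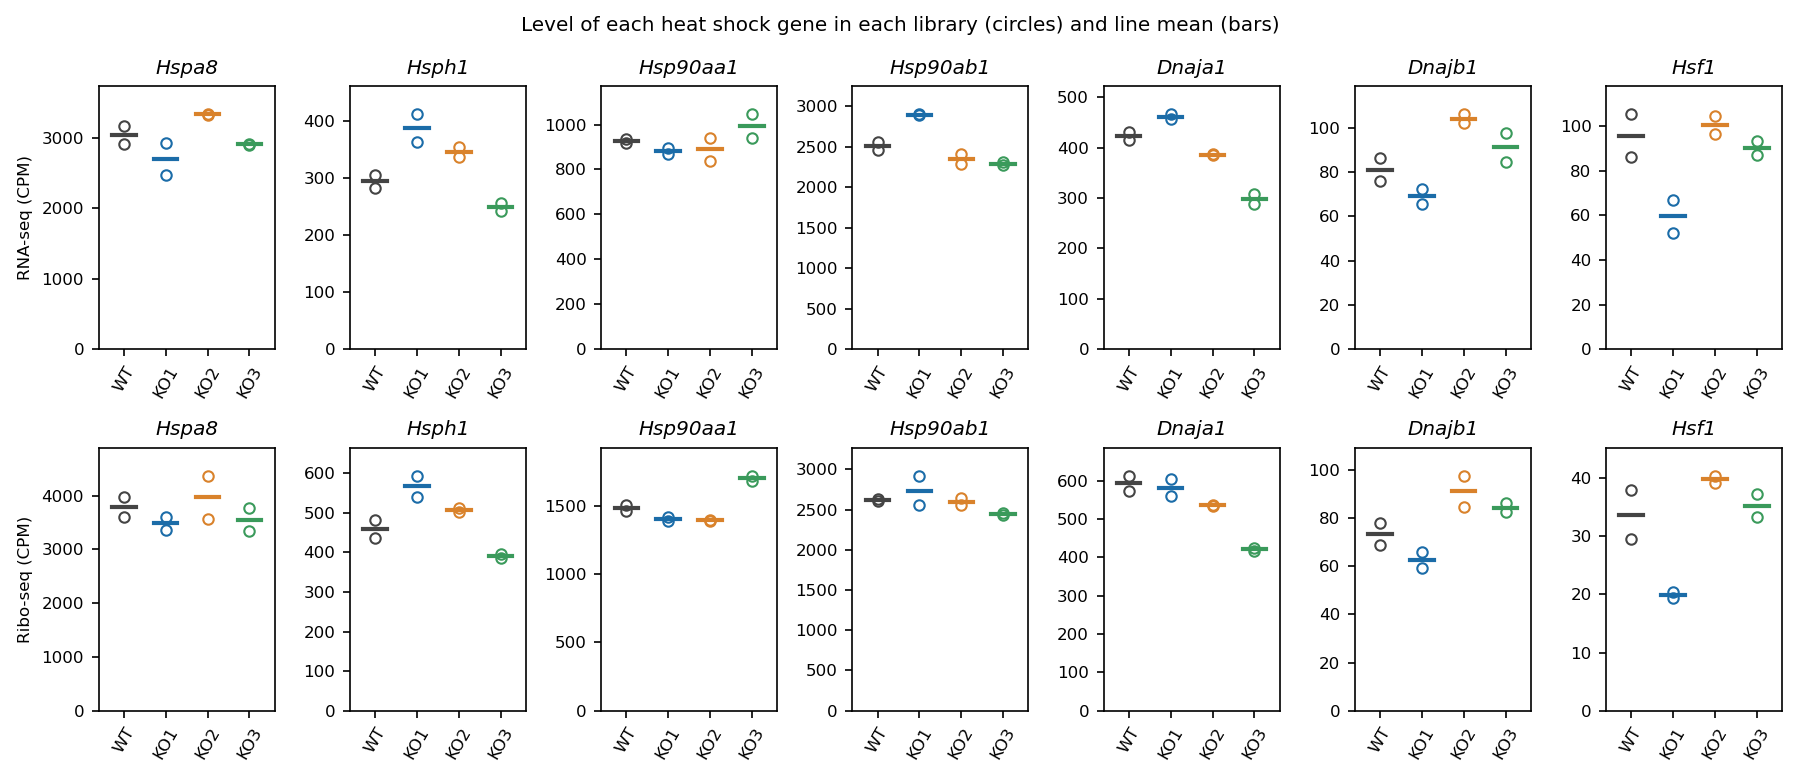
CPM of RNA-seq (top) and Ribo-seq (bottom) for the 7 expressed genes, with a circle for each library and a bar for the mean of each line, on axes that start at 0. Hsf1 in KO1 and Dnaja1 in KO3 lie below WT cells in both assays, and Hsph1 lies above WT cells in KO1 and KO2 and below in KO3.

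Averaged over the 3 clones, few members differed from WT cells. The SE and p-value of a mean rest on the spread between replicates within a line, not between clones. RNA of Dnaja1 was lower by 0.16 ± 0.044 on the log2 scale (edgeR adjusted p = 0.00608) and that of Hsf1 by 0.23 ± 0.074 (edgeR adjusted p = 0.0279), beside 18.9% of 11755 genes that passed. By clone, Dnaja1 RNA changed by 0.12 in KO1, -0.12 in KO2 and -0.49 in KO3. Hsf1 RNA changed by -0.68, 0.077 and -0.072. For Hsph1, the mean change was 0.14 ± 0.051 (edgeR adjusted p = 0.0562). Without replicate 1 of WT neither Dnaja1 (-0.14, edgeR adjusted p = 0.169) nor Hsf1 (-0.081, edgeR adjusted p = 0.679) passed. Hsf1 also did not pass without replicate 2 of KO1 (-0.17, edgeR adjusted p = 0.0903) or of KO3 (-0.21, edgeR adjusted p = 0.0597), nor by DESeq2 (adjusted p = 0.114). Hsph1 passed with the replicate number as a block (0.13, edgeR adjusted p = 0.016), with no filter (edgeR adjusted p = 0.0453), and without replicate 2 of KO1, KO2 or KO3 (0.15 to 0.17, edgeR adjusted p from 0.0163 to 0.0471). For footprints, Dnaja1 was lower by 0.22 ± 0.053 (edgeR adjusted p = 0.00409), beside 9.25% of 10763 genes, and it did not pass without replicate 2 of WT (-0.17, edgeR adjusted p = 0.196).

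The test of whether the clones differ from each other passed for RNA of all 7 genes, beside 74.0% of 11755, so that most genes of the table passed as well. Adjusted p-values ran from 1.28e-11 for Dnaja1 to 0.00459 for Hsp90aa1 (edgeR). For footprints 6 of 7 passed, beside 59.5% of 10763, and Hspa8 did not (edgeR adjusted p = 0.0565). KO1 and KO2 were made with the same guides, and their log2 RNA changes were -0.24 and 0.37 for Dnajb1, -0.17 and 0.14 for Hspa8, and -0.68 and 0.077 for Hsf1, a pair of clones that was not tested on its own.

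TE did not pass in any comparison for any of the 7 genes. The share of all genes that passed was 0.0942% of 11680 for KO1, 0.0173% of 11570 for KO2 and 0.104% of 11566 for KO3. None of 11903 passed for the mean of the clones (0%; 451 had an unadjusted p under 0.05, and DESeq2 also called none), and 1.03% passed for a difference between clones. With the lysate as a block, 83 genes in place of 11 passed in KO1, 4 in place of 2 in KO2 and 407 in place of 123 for a difference between clones, and none of the 7 was among them. The log2 TE changes of the 7 genes in the 3 clones lay between -0.15 and 0.14, with standard errors from 0.066 to 0.23, and edgeR's adjusted p was at least 0.719. The 95% intervals lay within -0.54 to 0.51, and within -0.32 to 0.30 without Hsf1, so a larger TE change lies outside them. The lowest unadjusted p of a single clone was 0.0652, for Dnaja1 in KO1 with a change of -0.15 and an interval from -0.32 to 0.010. Hsp90ab1 had an unadjusted p of 0.0247 for a difference between clones (edgeR adjusted p = 0.382), with TE changes of -0.12 for KO1, 0.088 for KO2 and 0.020 for KO3.

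The wider chaperone system was read from 8 lists with 72 genes. For RNA, 28 of the 63 testable genes passed in KO1 (11 higher and 17 lower), 13 of 64 in KO2 (8 and 5) and 34 of 64 in KO3 (18 and 16), to be read beside the shares of all genes given above. For footprints, it was 21 of 60 in KO1 (5 and 16), 8 of 60 in KO2 (8 and 0) and 20 of 61 in KO3 (11 and 9). The shares of all genes for footprints were 26.9%, 11.7% and 30.6%. For TE, none passed in any clone, and 2 of 64 passed for a difference between clones, beside 1.03% of all genes. Among 8 testable genes known to be induced by heat shock, 5 were lower and 1 was higher for RNA in KO1, and 5 were lower for footprints. Their median log2 RNA change in KO1 was -0.31, against -0.011 in KO2 and -0.097 in KO3.

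**Figure D5:**
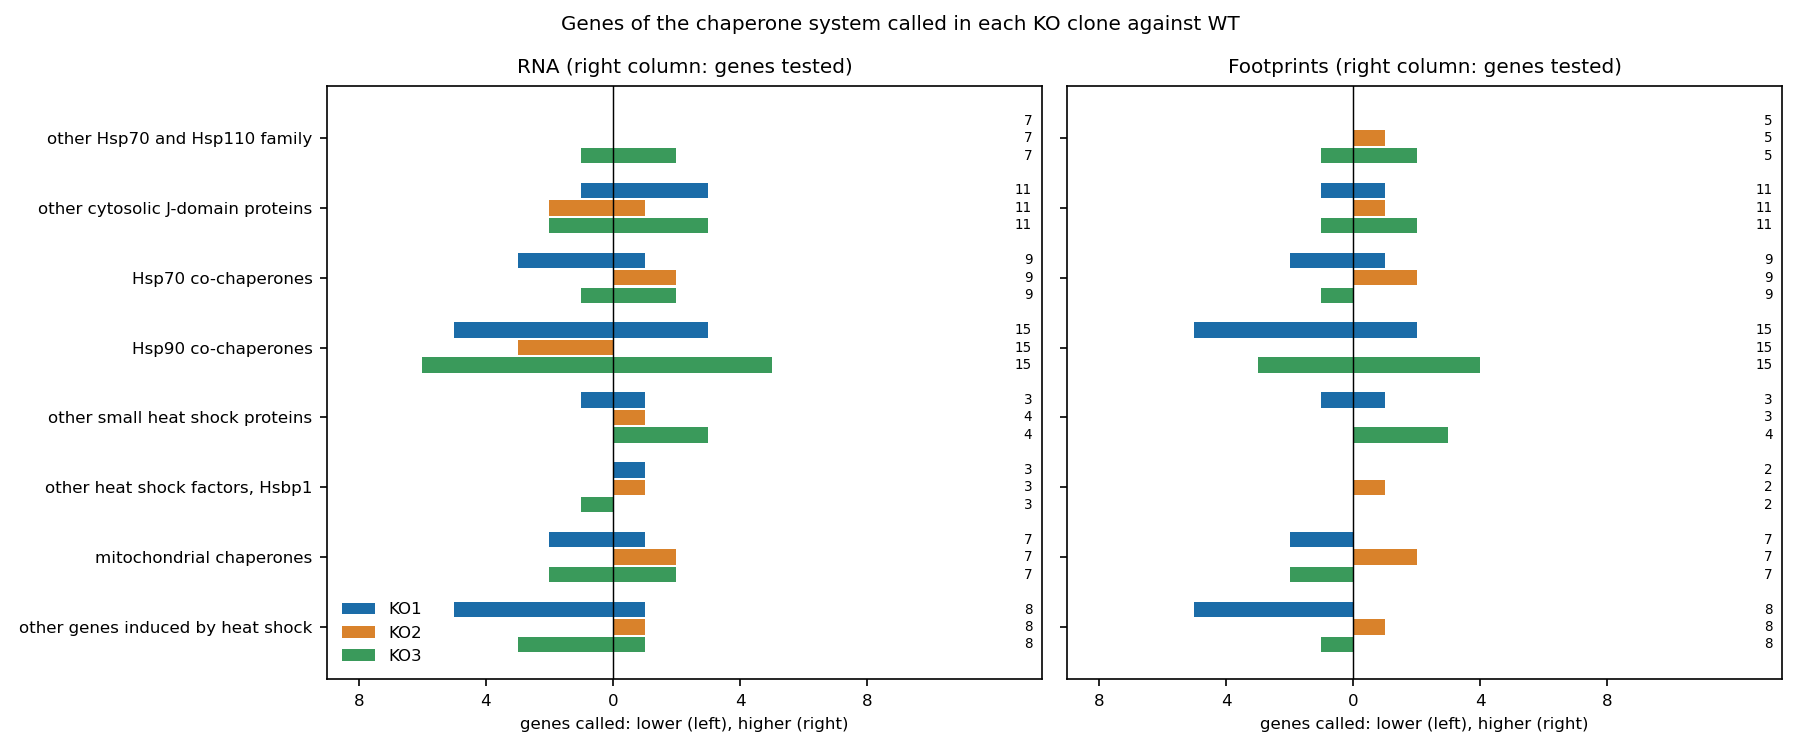
Number of genes of each list with an adjusted p under 0.05 in KO1, KO2 and KO3 against WT, higher to the right and lower to the left, with the number tested in the right column. Genes induced by heat shock have 5 falls in KO1 in both assays, and Hsp90 co-chaperones have calls in both directions in KO3. In KO1, 46.7% of all genes passed for RNA and 26.9% for footprints.

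Ppp5c and Ier5 were the list genes whose RNA changed in the same direction in all 3 clones. Ppp5c, a phosphatase that docks on Hsp90, had 124 and 119 CPM of RNA in WT cells, while KO1 had 80.8 and 81.3, KO2 105 and 95.6, and KO3 108 and 103. All 6 clone libraries lay below the WT libraries, with log2 changes of -0.58 for KO1, -0.27 for KO2 and -0.20 for KO3 (edgeR adjusted p = 4.77e-10, 0.00856 and 0.0143). Ier5, an immediate early gene product known to promote Hsf1 activity, had 99.5 and 93.8 CPM in WT cells and was higher in each clone, from 109 to 132 CPM. Its log2 changes were 0.37, 0.26 and 0.20 (edgeR adjusted p = 1.38e-05, 0.0123 and 0.0145). The comparisons share the WT libraries. How many of all genes changed in 1 direction in all 3 clones was not counted. The calls of Ppp5c and Ier5 were not recomputed under the alternative settings. Footprints of Ppp5c fell in KO1 (-0.53), while for Ier5 the footprint changes of 0.14 to 0.17 did not pass.

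Of the 8 testable genes known to be induced by heat shock, 4 passed for an RNA difference between clones, beside 74.0% of all genes. For RNA of the mean of the clones, 4 passed (1 higher and 3 lower), beside 18.9% of all genes. For footprints, 6 passed for a difference between clones and 1 (lower) for the mean, beside 59.5% and 9.25%. Hmox1, heme oxygenase 1, had 17.5 and 18.8 CPM of RNA in WT cells, while KO1 had 9.64 and 10.6, KO2 20.6 and 22.1, and KO3 9.71 and 11.0, with log2 changes of -0.85 in KO1 and -0.80 in KO3 that passed. Its footprints fell in KO1 (-0.77) and rose in KO2 (0.53). Sqstm1, the autophagy receptor p62, fell in KO1 (-0.34 for RNA and -0.39 for footprints) and KO3 (-0.18 and -0.21). Zfand2a, an arsenite- and heat-inducible zinc finger gene, fell in KO1 by 0.27 for RNA and by 0.90 for footprints, and Dedd2 fell there for RNA (-0.53).

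Of 9 Hsp70 co-chaperones, 4 passed for RNA in KO1 (1 higher and 3 lower), 2 in KO2 (both higher) and 3 in KO3 (2 higher and 1 lower). The shares of all genes were 46.7%, 20.4% and 45.4%. St13, which binds and stabilises Hsp70, had 348 and 335 CPM in WT cells, while KO1 had 246 and 254, KO2 405 and 411, and KO3 368 and 386, so KO1 was below and the others were above WT cells, and all 3 changes passed (-0.45, 0.26 and 0.15). Bag1, an Hsp70 exchange factor, rose in KO1 (0.30) and fell in KO3 (-0.48), and its footprints did the same (0.40 and -0.48). Bag3, which links Hsp70 to autophagy and is itself inducible by heat, fell in KO1 (-0.49 for RNA and -0.38 for footprints). Bag2 rose in KO2 (0.32 and 0.45), and Bag5 RNA rose in KO3 (0.49).

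Of 15 Hsp90 co-chaperones, 8 passed for RNA in KO1 (3 higher and 5 lower), 3 in KO2 (all lower) and 11 in KO3 (5 higher and 6 lower). These counts stand beside 46.7%, 20.4% and 45.4% of all genes. Chordc1, an Hsp90-binding protein and 1 of 4 list genes with a run of 3 heat shock units among the 60 that had a promoter window (with Dnajb6, Hspd1 and Hspe1), fell in KO1 (-0.47) and KO3 (-0.32). Its RNA was 58.9 and 57.8 CPM in WT cells, while KO1 had 44.8 and 39.4, KO2 68.9 and 60.9, and KO3 47.7 and 45.0. Ptges3, the p23 co-chaperone, rose in KO1 and KO3 (0.22 and 0.15) and fell in KO2 (-0.20). Ahsa1, which activates the Hsp90 ATPase, rose in KO3 (0.28), Ahsa2 fell there (-0.41), and Nudc rose in KO1 (0.25). Tomm34 rose in KO3 for RNA (0.34) and in KO1 and KO3 for footprints (0.35 and 0.44), and Sugt1 rose in KO1 for footprints (0.36).

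Other J-domain protein genes and relatives of Hsp70 also had calls, some of them in more than 1 clone. Of 11 testable J-domain genes, 4, 3 and 5 passed for RNA in KO1, KO2 and KO3, beside 46.7%, 20.4% and 45.4% of all genes. Dnajb4 rose in KO1 (0.70) and KO3 (0.30), with footprints at 0.74 and 0.34. Dnajc8 fell in KO2 (-0.30) and rose in KO3 (0.54), Dnajc9 rose in KO1 (0.19) and fell in KO2 and KO3 (-0.23 and -0.22), and Dnajb5 fell in KO3 by 1.22 for RNA and 1.64 for footprints. Dnaja2 rose in KO2 (0.23), Dnajc21 in KO3 (0.41), and Dnajc7 fell in KO1 (-0.23). Of 7 testable Hsp70 and Hsp110 relatives, none passed for RNA in KO1 or KO2 by edgeR, and in KO3 Hspa13 and Hspa14 rose (both 0.42) and Hspa4 fell (-0.18).

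Of the other small heat shock proteins, 2 of 3 testable genes passed for RNA in KO1 (1 higher and 1 lower), 1 of 4 in KO2 and 3 of 4 in KO3 (all higher). Shares of all genes were 46.7%, 20.4% and 45.4%. Cryab, alpha B-crystallin, had 213 and 226 RNA-seq counts in WT cells, while KO1 had 83 and 59, KO2 178 and 204, and KO3 315 and 301, with a log2 change of -1.60 in KO1 and 0.36 in KO3 that passed. Hspb2, its neighbour in the genome, had 24 and 7 counts in WT cells, while KO1 had 1 and 0, KO2 29 and 48, and KO3 55 and 37, and passed in KO2 and KO3. Hspb8, a partner of Bag3, rose in KO1 (0.45) and KO3 (0.27), with footprints at 0.67 and 0.55.

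Among the other heat shock factors and their binding protein, Hsf2 RNA rose in KO2 (0.60), and RNA of Hsbp1, which binds Hsf1, rose in KO1 (0.29). Hsbp1 footprints were 48.0 and 49.8 CPM in WT cells, while KO1 had 43.4 and 43.0, KO2 61.5 and 70.6, and KO3 49.9 and 58.7. Hsf4 had 34 and 29 RNA-seq counts in WT cells, while KO1 had 43 and 47, KO2 44 and 43, and KO3 3 and 4, and passed in KO3. Of 7 mitochondrial chaperones, 3, 2 and 4 passed for RNA in KO1, KO2 and KO3, beside 46.7%, 20.4% and 45.4% of all genes. Hspe1, the mitochondrial Hsp10, had 323 and 319 CPM of RNA in WT cells, while KO1 had 431 and 413, KO2 439 and 395, and KO3 260 and 225, with log2 changes of 0.39, 0.38 and -0.40 that passed. Its footprints were 412 and 409 CPM in WT cells, while KO1 had 430 and 405, KO2 600 and 607, and KO3 322 and 325. Hspd1, the mitochondrial Hsp60 encoded head to head with Hspe1, rose in KO2 (0.18) and fell in KO3 (-0.28). Clpb fell in KO1 (-0.63) and rose in KO3 (0.24), Dnaja3 fell in KO1 (-0.33), and Hspa9 rose in KO3 (0.16).

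Genes with RNA profiles most like those of the members were sought by Pearson's r of log2 CPM over the 8 RNA-seq libraries among 10614 genes with at least 10 counts in each, as a description of 4 lines with 2 libraries each. For Hsph1, they were Ptrh2 (0.994), Nrp1 (0.993) and Pcif1 (0.993), for Hsp90ab1 Bmt2 (0.995), Psmb7 (0.994) and Naa30 (0.991), and for Hspa8 Gm44502 (0.978), Nup62 (0.978) and Tspan3 (0.962). Among the members, r over the same libraries ran from -0.85 for Hsp90ab1 with Hsf1 to 0.87 for Hspa8 with Hsf1. Hsph1 had 0.82 with Dnaja1 and 0.69 with Hsp90ab1, and Hspa8 had -0.61 with Hsp90ab1.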

How the data were processed

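The deposited values are raw counts per transcript. According to the methods, the authors trimmed reads with fastp (0.21.0 in the submitters' processing notes), removed noncoding RNA, aligned to mm10 and assigned to GENCODE vM23 with STAR (2.7.0a), and counted A sites on coding sequences without the outer 5 codons at each end. For RNA-seq, polyA RNA is given in the labels but rRNA depletion in the methods, which can affect RNA levels and TE. No column lacked a sample.

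From these counts, 1 transcript per gene was kept, low genes were removed with filterByExpr, and TMM factors were computed within each assay. Tests used edgeR 4.0.16 (quasi-likelihood) in R 4.3.3, with Benjamini-Hochberg adjustment over all genes at 0.05. TE was tested as the genotype-by-assay interaction in the 8 libraries of a clone and WT cells (16 for all lines). DESeq2 1.42.0 was an alternative, and the procedure was tested on simulated data. Coding windows came from a GENCODE annotation of GRCm38, promoters from RefSeq.

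The members, the lists and the rule for named genes were chosen with earlier results of these data known. Named were all members, list genes called for RNA in 1 direction in all 3 clones, up to 2 rises and 2 falls with the largest change per list and comparison, and the 3 genes most like Hspa8, Hsph1 and Hsp90ab1. RNA and footprint libraries of a lysate are paired by the protocol. Between lines the replicate numbers carry no stated link, and the correlation of replicate differences was 0.025 to 0.224.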

Additional observations from a re-analysis of the deposited data

Results flagged for a closer look

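RNA changes against WT cells differed between KO1, KO2 and KO3 for each of the 7 expressed genes in a test of the difference itself (edgeR's quasi-likelihood test with 2 degrees of freedom on the 8 RNA-seq libraries). The adjusted p was 9.4e-06 for Hspa8, 1.31e-10 for Hsph1, 0.00459 for Hsp90aa1, 9.5e-09 for Hsp90ab1, 1.28e-11 for Dnaja1, 2.74e-07 for Dnajb1 and 1.9e-08 for Hsf1. For footprints, the edgeR adjusted p was 9.66e-09 for Hsph1, 4.8e-05 for Hsp90aa1, 0.0416 for Hsp90ab1, 2.91e-07 for Dnaja1, 6.68e-05 for Dnajb1 and 6.78e-06 for Hsf1. Among all genes, 74.0% passed this test for RNA and 59.5% for footprints. Hsph1 was higher in both libraries of KO1 and KO2 and lower in both of KO3 in either assay, and Hsf1 was lower in both libraries of KO1.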

How the results depend on the processing

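Each count of called members was recomputed under each alternative of the normalization, filter, test, features, block, threshold, fit and replicates. No member reversed its direction in a comparison where it was called. By DESeq2, 3 of 7 passed for RNA in KO1 in place of 6, 1 in place of 2 for RNA of the mean of the clones, 1 in place of 2 for footprints in KO1, and 0 in place of 1 for footprints in KO2, where fitting all transcripts also gave 0. Leaving out each replicate in turn gave 4 to 5 called members for RNA in KO1, 1 to 4 in KO2, 2 to 4 in KO3, 0 to 3 for the mean and 6 to 7 for a difference between clones. For footprints, it gave 0 to 2 in KO1, 0 to 2 in KO2, 1 to 3 in KO3, 0 to 1 for the mean and 4 to 7 for a difference between clones, and for TE 0 in each comparison. With 1 library left in a line, it was assumed to vary like the others. Counts of called members moved by over 1.5 times without replicate 1 of WT (RNA of KO3 from 4 to 2, RNA of the mean from 2 to 0, footprints of KO1 from 2 to 1, of KO2 from 1 to 0 and of KO3 from 3 to 1), without replicate 2 of WT (RNA of KO2 from 3 to 1, footprints of the mean from 1 to 0), without replicate 1 of KO1 (footprints of KO1 from 2 to 0) and without replicate 1 or 2 of KO2 (footprints of KO2 from 1 to 2 or 0). The cause was not tested.

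With the replicate number as a block, the counts of called members were 6, 3 and 5 for RNA in KO1, KO2 and KO3 and 2, 1 and 3 for footprints, with 3 and 1 for the mean and 7 and 7 for a difference between clones. Dnajb1 in KO3 (edgeR adjusted p = 0.0322), Hsph1 in the mean and Hspa8 in the footprint difference were added. The replicate and the lysate block gave 0 members for TE.

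Counts over all genes moved by over 1.5 times in these cases. DESeq2 called 1404 in place of 2346 for RNA in KO2, 859 in place of 2777 for footprints in KO1, 324 in place of 1213 in KO2, 1232 in place of 3179 in KO3, 342 in place of 996 for the mean and 3831 in place of 6405 for a difference between clones. For TE in KO1, 11 became 20 without a filter, 19 by DESeq2, 58 with the replicate block and 83 with the lysate block. For TE in KO3, 12 became 19 without a filter, 7 by DESeq2 and 7 with all lines in 1 fit. For TE in KO2, 2 became 1 with at least 10 counts in every library and 4 with either block. The TE difference between clones rose from 123 to 190 at an adjusted p under 0.1, 247 with the replicate block and 407 with the lysate block, and the TE mean from 0 to 1 with the lysate block. Fitting all transcripts, which are about 3 times as many features, called 15261, 5762 and 13880 for RNA in the clones, 5825 for the mean and 25610 for the difference, 7346, 2814, 7988, 2452 and 17673 for footprints, and 65, 6, 36, 2 and 419 for TE. Without replicate 1 of WT, 1390 genes were called for RNA in KO2, 1153 for RNA of the mean, 1581, 710 and 384 for footprints of KO1, KO2 and the mean, and 4 and 2 for TE in KO1 and KO3. Without replicate 2 of WT, 1480 were called for RNA in KO2, 1174 for RNA of the mean, 582 for footprints of the mean, and 1 and 5 for TE in KO2 and KO3. Without replicate 1 of KO1, footprints of KO1 gave 1381. For TE, KO1 gave 4 without its replicate 2, KO2 1 without its replicate 2, KO3 6 and 3 without its replicate 1 or 2, and the difference between clones 60 and 71 without replicate 1 or 2 of KO1 and 79 and 66 without replicate 1 or 2 of KO3. Ribo-seq depth in replicate 2 of KO1 limits Hsf1 and Dnajb1, with 23 and 78 footprints.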

Other observations

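The TE of Hspa8 was higher in replicate 2 than in replicate 1 of every line, at 1.37 against 1.14 in WT cells, 1.37 against 1.23 in KO1, 1.31 against 1.07 in KO2, and 1.30 against 1.15 in KO3. Hsp90aa1 and Dnaja1 also had a higher TE in replicate 2 of every line, at 1.64 against 1.57 and 1.48 against 1.33 in WT cells. The smallest gaps were near ties, at 1.592 against 1.585 for Hsp90aa1 in KO1 and 1.391 against 1.385 for Dnaja1 in KO2. Hsph1, Dnajb1 and Hsf1 differed in direction between lines. For Hsp90ab1, TE was lower in replicate 2 in WT cells, KO1 and KO2 and higher in KO3. The labels give no batch or date behind these numbers.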
